A study of Mus musculus with 24 samples.

Results

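The comparison described here set the brain hemisphere on the side of an occluded middle cerebral artery against the same-side hemisphere of sham-operated mice, between animals. It took 12 of the 24 arrays of the series, chosen by the sample titles alone: 8 ipsilateral hemispheres of mice with the artery occluded (MCAO, which models ischaemic stroke) and 4 ipsilateral hemispheres after sham surgery. All 12 mice were male C57Bl/6j animals of 8 to 10 weeks, each mouse a separate animal with no transgene or drug named. In the MCAO mice an intraluminal filament blocked the artery for 90 min and was followed by 30 min of reperfusion, so that tissue was taken 2 h after onset, while sham mice went through surgery named only as sham. Brains were perfused with saline, and a whole hemisphere went onto each whole-transcript Affymetrix array, which mixes tissue inside and outside the territory of the artery. The other 12 arrays hold the contralateral hemispheres of the same mice and do not enter the main ipsilateral tests. They are described beside them, and are used in array correlations and in an alternative fit of all 4 groups.

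Immediate early genes are transcribed within minutes of a stimulus from factors already present in the cell, and many of them code for transcription factors that drive a second wave of genes. In neurons they are switched on by calcium entry and by the kinases that follow it, which act on the promoter-bound factors CREB and SRF. Loss of blood flow depolarises neurons and releases glutamate, and brain tissue is known to transcribe these genes in the first hours after it.

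Of the 12 arrays, 10 were alike and 2 stood apart. The SD of the log2 signal over the 22206 probe sets that are not array controls was 2.33 to 2.40 on 10 arrays. Across probe sets, each had a median correlation of 0.981 to 0.989 with the other arrays of both hemispheres whose SD was at least 2. For MCAO mouse 3 and sham mouse 1 the SD was 1.54 and 1.54, and the median correlation with those arrays was 0.550 and 0.501. Their positive control probe sets averaged 4.99 to 5.01 against 6.51 to 6.74. The background of these arrays, taken as the 95th percentile of 5222 negative control probe sets, lay at 7.41 to 7.48 against 5.23 to 5.71 on the 10. Values below come from the 10 arrays with an SD of at least 2 (7 MCAO, 3 sham) unless all 12 are named. Precision is limited by how few arrays each group holds.

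A small group of genes was higher in the occluded hemisphere, and most of it consisted of immediate early transcription factors and other rapidly induced genes. With limma and Benjamini-Hochberg adjustment over all 22206 probe sets, 28 genes were higher (0.126% of those tested) and 5 were lower (0.0225%). Npas4, Ccn1, Fos, Ccl3, Fosb and Nr4a1 were among them. The log2 differences of the 28 ran from 0.80 to 4.88 with a median of 1.90, and 26 of them exceeded 1, a doubling. In all 28 the lowest MCAO value exceeded the highest sham value, and in all 5 the reverse held. Such a gap between the groups was present in 1.40% of all probe sets upward and 0.986% downward. The median difference over all probe sets was 0.01. An unadjusted p under 0.05 was reached by 1661 probe sets (7.48%).

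**Figure D1:**
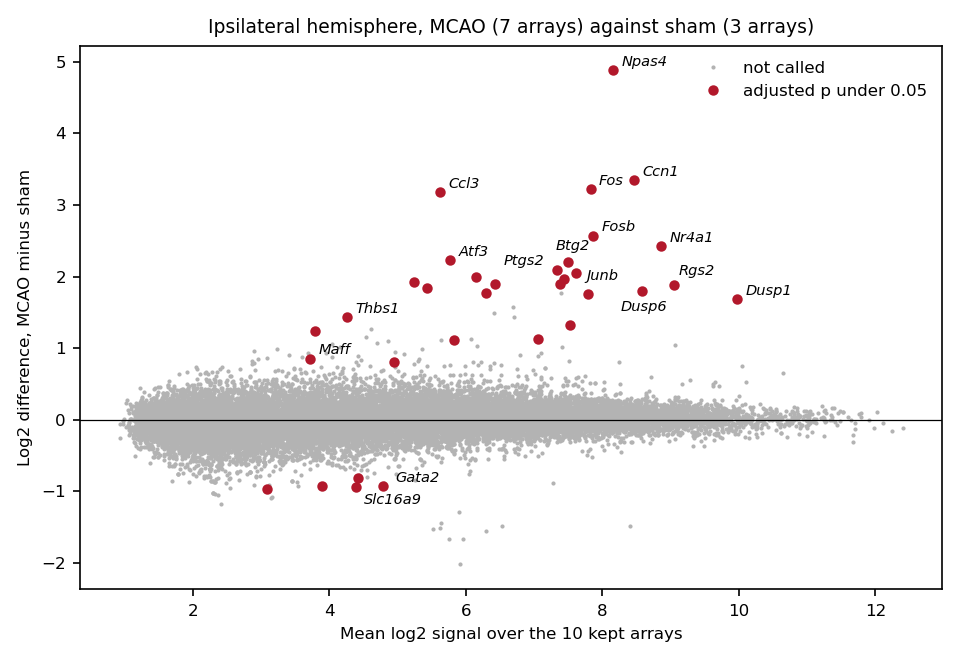
Each point is 1 of 22206 probe sets, with its mean log2 signal over the 10 kept ipsilateral arrays on the x axis and the log2 difference, MCAO minus sham, on the y axis; the 33 called genes are red. The 28 higher genes run from 0.80 to 4.88 and spread across the signal range, while the 5 lower genes lie at -0.82 to -0.97 and at low signal.

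With MCAO mouse 3 and sham mouse 1 included, 1 gene was higher (0.00450% of probe sets), Ccn1, and 0 were lower, with 225 probe sets (1.01%) at an unadjusted p under 0.05. The differences of the 28 higher genes were then 0.83 to 4.42, all positive, and those of the 5 lower genes were -1.05 to -0.41. Standard errors of the 28 grew from a median of 0.21 to a median of 0.41. In 8 of the 28 genes the 8 MCAO arrays still lay above all 4 sham arrays (0.117% of all probe sets did): Npas4, Ccn1, Btg2, Ptgs2, Zfp36, Adamts1, Apold1 and Ciart. Of the 5 lower genes, Gata2 stayed wholly below the sham arrays (0.0630% of probe sets did). On the added arrays these 8 genes and Gata2 lay below the backgrounds of 7.41 and 7.48, except Ccn1 in MCAO mouse 3 (7.65). Signals below background there cannot show whether a separation held.

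The transcription factors came first. Npas4, a factor made by neurons in response to electrical activity, had log2 signals between 8.90 and 10.17 (median 9.70) in the 7 MCAO hemispheres and 4.70, 4.86 and 4.65 in sham mice 2, 3 and 4. Its sham signal was above background on 0 of 3 arrays, so the rise is given as at least 16.5-fold (log2 difference 4.88 ± 0.22 SE, limma adjusted p = 2.29e-08). A fold here is the ratio of mean signals on the log2 scale, and "at least" marks a gene whose sham signal did not pass background, with each dim sham value replaced by that background where it was lower.

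Fos, Fosb, Junb and Jun code for subunits of the AP-1 transcription factor. Fos lay between 8.08 and 9.13 (median 8.90) in MCAO mice and at 5.44, 5.91 and 5.36 in the sham mice, and rose 9.37-fold (3.23 ± 0.21, adjusted p = 2.46e-06 in limma), with a sham signal above background on 1 of 3 arrays. Fosb lay between 7.79 and 9.03 against 5.81 to 6.34 and rose 5.95-fold (2.57 ± 0.24). Junb and Jun rose 4.13-fold (2.05 ± 0.17) and 2.50-fold (1.32 ± 0.12). All 4 AP-1 genes were above background on all 7 MCAO arrays, and all 4 had their lowest kept MCAO value in mouse 5. The other AP-1 genes of the list did not pass the test: Fosl2 was at 1.43 (adjusted p = 0.086), Jund at 0.35 (0.66) and Fosl1 at 0.34 (0.7).

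Nr4a1, an orphan nuclear receptor, lay between 8.80 and 9.91 in MCAO mice against 6.85, 7.11 and 7.51 in sham mice, a 5.39-fold rise (2.43 ± 0.23, adjusted p = 8.69e-05 in limma). Its relatives did not pass the test: Nr4a3 had a difference of 1.04 ± 0.20 (adjusted p = 0.069), and Nr4a2 one of 0.27 ± 0.24 with groups that overlapped. Of the zinc finger factors of the Egr family, 1 of 4 passed. Egr2 rose 3.73-fold (1.90 ± 0.30, adjusted p = 0.0181). Egr4 was at 1.76 ± 0.33 (adjusted p = 0.058), Egr1 at 0.65 ± 0.15 with 0.19 and Egr3 at 0.37 ± 0.18 with 0.68. The MCAO and sham values of Egr1 did not overlap (10.62 to 11.03 against 10.01 to 10.52). The differences between family members were not tested.

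Atf3, a stress-induced factor of the bZIP class, rose at least 1.83-fold (2.23 ± 0.30, adjusted p = 0.00267 in limma), from 3.44 to 5.09 in sham mice to 5.88 to 6.98 in MCAO mice. Btg2, a regulator of cell growth and messenger RNA decay, rose 4.60-fold (2.20 ± 0.18), with MCAO values of 7.70 to 8.43 against 5.56 to 6.23, the latter above background on 2 of 3 arrays. Ier2, a nuclear immediate early protein, rose at least 1.18-fold (1.92 ± 0.21), with a signal above background on 5 of 7 MCAO arrays. Maff and Cebpb, also bZIP factors, were called at 0.86 ± 0.15 (adjusted p = 0.046) and 0.80 ± 0.14 (adjusted p = 0.0255). Both were dim: Maff was above background on 0 of 10 arrays and Cebpb on 1 of 7 MCAO arrays, so no fold is given.

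In all, 12 of 31 measured genes of the immediate early transcription factor list rose and 0 fell (0.126% of all probe sets rose). The list median was 0.86 against 0.01 over all probe sets. The 12 include Btg2 and Ier2, immediate early genes not described above as transcription factors. The lists were chosen with earlier results of these data known, and 26 of the 28 higher genes are in some list. The shares of lists given here are therefore a description and not a test. The MCAO values lay wholly above the sham values in 19 of the 31, as in 1.40% of all probe sets. Myc was the 1 member with a negative difference, at -0.10 ± 0.18. Besides Egr4 and Nr4a3, some rapidly induced genes stood just past the threshold: Klf4 at 1.27 ± 0.24 (adjusted p = 0.058), Zfp36l2 at 1.03 ± 0.19 (0.055) and Per1 at 0.81 ± 0.15 (0.062).

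**Figure D2:**
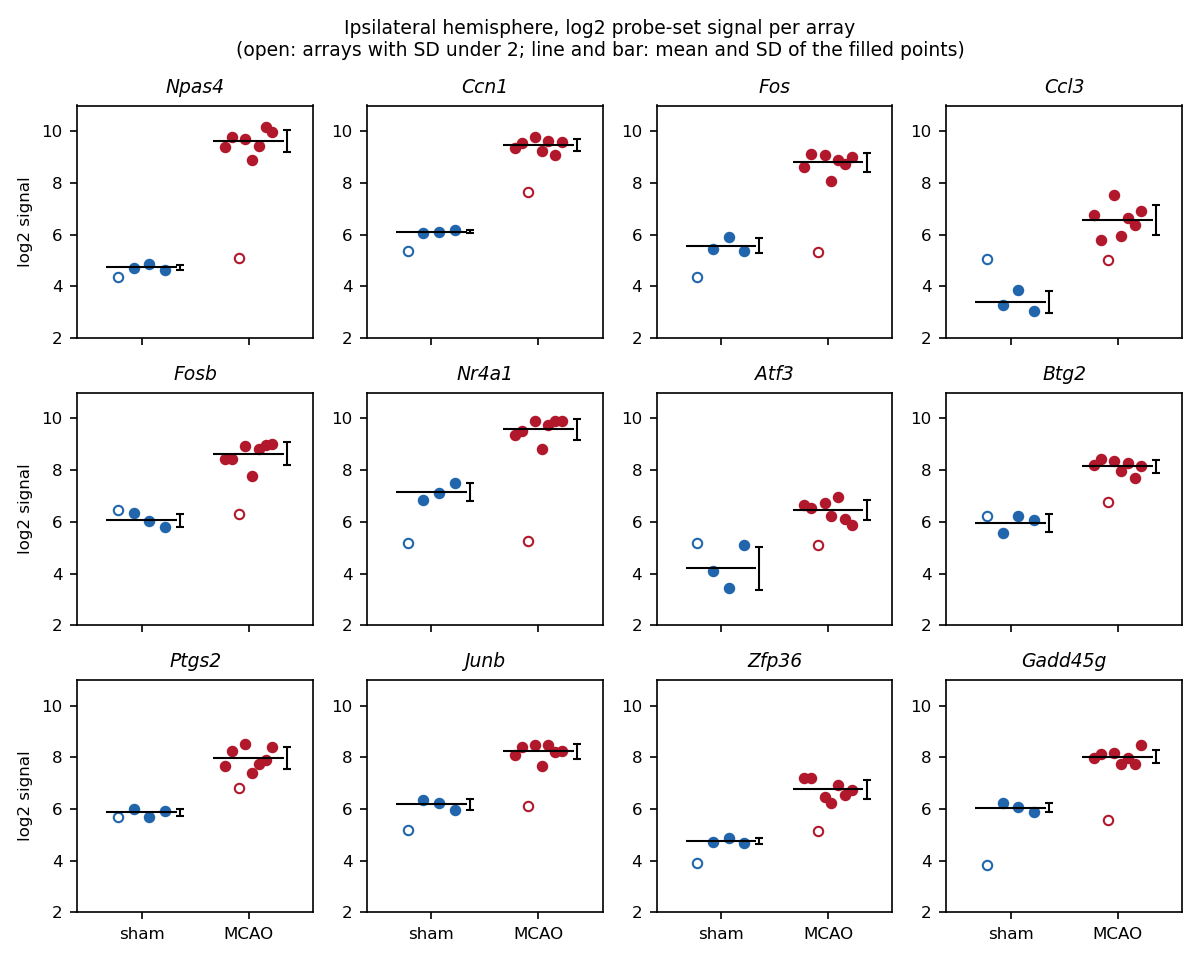
Log2 signal of the 12 genes of greatest rise on each of the 12 ipsilateral arrays, with sham mice 1 to 4 in blue and MCAO mice 1 to 8 in red from left to right; open points are the 2 arrays with an SD under 2, and lines and bars are the mean and SD of the filled points. All filled MCAO points lie above all filled sham points in each panel. MCAO mouse 3 lies near the sham mice for Npas4 (5.11) and Fos (5.34), both below its background of 7.41, but not for Ccn1 (7.65).

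Promoter sequence is shown for some of the higher genes, since the cyclic AMP response element (CRE) bound by CREB and the CArG box bound by SRF are the textbook entry points of this response. RefSeq promoter windows on GRCm38.p6, 250 bases before to 50 bases after a transcript start, were found for 24 of the 28 higher genes. The CRE core TGACG on either strand was present in 17 of the 24 genes (70.8%) and in 23% of 27025 genes. These 27025 are the RefSeq genes searched. They were not limited to genes on the array, and a chromosome was left out of the search. The full palindrome TGACGTCA, which holds the core on both strands, was present in Btg2, Dusp1 and Maff (12.5%, against 2.03%). A CArG box was found in Egr2 and Zfp36 (8.33%, against 1.81%), and bases outside the windows were not searched. The windows below hold these letters, CRE cores and the CArG box in capitals, each 5′ to 3′ on the strand of its gene: Npas4 at chr19:4990112-4990171 (minus strand), Fos at chr12:85473750-85473839 (plus), Nr4a1 at chr15:101266766-101266825 (plus), Btg2 at chr1:134079296-134079335 (minus), Dusp1 at chr17:26508593-26508672 (minus), Ccn1 at chr3:145649996-145650055 (minus), Apold1 at chr6:134981931-134981980 (plus) and Zfp36 at chr7:28379259-28379308 (minus).
Npas4: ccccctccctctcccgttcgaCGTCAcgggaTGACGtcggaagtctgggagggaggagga
Fos: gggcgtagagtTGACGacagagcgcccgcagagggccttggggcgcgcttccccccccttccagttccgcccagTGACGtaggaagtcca
Nr4a1: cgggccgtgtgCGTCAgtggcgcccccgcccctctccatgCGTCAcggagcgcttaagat
Btg2: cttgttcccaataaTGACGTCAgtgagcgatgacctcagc
Dusp1: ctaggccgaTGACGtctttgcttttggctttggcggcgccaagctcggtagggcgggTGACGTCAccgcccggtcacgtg
Ccn1: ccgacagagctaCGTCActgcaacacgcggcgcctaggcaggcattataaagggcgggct
Apold1: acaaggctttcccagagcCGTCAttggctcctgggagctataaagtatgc
Zfp36: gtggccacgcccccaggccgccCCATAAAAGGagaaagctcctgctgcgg

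A match is a description of the letters and not a bound site, and a part of CREB or SRF in these data was not tested. The windows printed are a selection, and each holds a CRE core or a CArG box. Jun, Ciart and Gadd45g, among others, had a window without a CRE core and are not shown. Other motifs were searched on both strands. The AP-1 site TGANTCA was in 0 of the 24 genes and in 8.97% of all genes, the TATA box TATAAA in 7 (29.2%, against 15.7%), an NF-kB motif in 5 (20.8%, against 5.14%) and the heat shock element in 0 (against 0.662%). The GC box GGGCGG was in 18 of the 24 (75%, against 38.2%) and in 4 of the 5 lower genes, which also had 0 CRE cores.

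The next group codes for proteins that act at the synapse, the membrane or in signalling. Of 32 measured activity-induced effectors, 7 rose and 0 fell (0.126% of probe sets rose), with a list median of 0.53. Ptgs2, the inducible cyclooxygenase of prostaglandin synthesis, lay between 7.40 and 8.52 (median 7.88) in MCAO mice and at 5.99, 5.71 and 5.92 in sham mice, a 4.29-fold rise (2.10 ± 0.22, limma adjusted p = 0.000181). Gadd45g, a stress sensor of the Gadd45 family, rose 3.93-fold (1.97 ± 0.16), and Rgs2, which shortens signalling by G proteins, rose 3.67-fold (1.88 ± 0.22). Arc, which removes AMPA receptors from synapses, rose 3.38-fold (1.76 ± 0.18), from 6.35 to 6.84 in sham mice to 7.71 to 8.52 in MCAO mice. Trib1, a pseudokinase that targets proteins for degradation, rose at least 1.50-fold (1.11 ± 0.17). Rgs2 lay at 7.65 to 7.79 in sham mice and at 8.92 to 10.15 in MCAO mice, with a wider spread after occlusion.

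Other activity genes did not pass the test. Bdnf, the neurotrophin induced by activity, lay between 6.77 and 7.41 in MCAO mice against 5.70, 6.17 and 6.59 in sham mice (0.91 ± 0.18, adjusted p = 0.086), so its groups did not overlap. It was called with trend and robust settings (adjusted p = 0.00699 in limma), among brighter probe sets only (0.0294) and without sham mouse 4 (0.0321), in a range of 0.00699 to 0.968 over all alternatives. Homer1, a synaptic scaffold, was at 0.28 ± 0.14 (adjusted p = 0.68), and its groups overlapped. Of 9 neurotrophins and receptors, 0 were called.

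The phosphatases that switch off MAP kinases include immediate early genes, and the 2 called members varied little between mice. Dusp6, which dephosphorylates ERK, lay between 8.97 and 9.32 (median 9.10) in MCAO mice and at 7.19, 7.25 and 7.50 in sham mice, a 3.49-fold rise (1.80 ± 0.13, limma adjusted p = 4.74e-06). Dusp1, which acts on p38 and JNK, lay between 10.30 and 10.67 (median 10.49) and at 8.72, 8.86 and 8.81, a 3.22-fold rise (1.69 ± 0.12, adjusted p = 5.71e-06). Both lay more than 1 log2 unit above every sham mouse in every MCAO mouse. These 2 were the called members of 18 measured MAP kinase phosphatases and feedback inhibitors (0.126% of all probe sets rose), whose median was 0.30. Dusp1 is also a member of the activity-induced effectors and of the glucocorticoid list below, and is counted in each. Dusp5, at 0.79 with an adjusted p of 0.53, and the feedback inhibitor Errfi1, at 0.72 with 0.26, did not pass.

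Among genes of the vessel wall and the extracellular matrix, 4 of 23 measured rose and 0 fell (0.126% of all probe sets rose), with a median of 0.23. Ccn1 is 1 of these 4 and is also counted among the activity-induced effectors above. Ccn1, a secreted matrix protein that is also an immediate early gene, lay between 9.10 and 9.76 (median 9.56) in MCAO mice and at 6.08, 6.10 and 6.17 in sham mice. It rose 10.2-fold (3.34 ± 0.15, limma adjusted p = 2.29e-08), and with all 12 arrays it was at 3.30 with an adjusted p of 0.0126. Adamts1, a secreted protease that cleaves proteoglycans, rose at least 2.67-fold (1.90 ± 0.23), and Apold1, an early response gene of endothelial cells, at least 2.37-fold (1.77 ± 0.21). Thbs1, the gene of thrombospondin-1, was higher by 1.44 ± 0.22 but was above background on 0 of 10 arrays. Plaur, the urokinase receptor, was at 0.94 (adjusted p = 0.3), and Ccn2, another CCN family member, at 0.55 with 0.39.

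Inflammatory genes were mostly below background. Ccl3, a chemokine that attracts monocytes, lay between 5.81 and 7.53 (median 6.64) in MCAO mice and at 3.28, 3.85 and 3.05 in sham mice, a rise of at least 1.99-fold (3.18 ± 0.30, limma adjusted p = 9.47e-05). It was the 1 called gene of 26 cytokines and chemokines (0.126% of all probe sets rose). Of the 26, 20 were above background on none of the 10 arrays. Il1b (0.19 ± 0.23), Il6 (0.03 ± 0.17) and Tnf (-0.21 ± 0.16) had overlapping groups and were below background on all 10, and Ccl2 was at 1.06 ± 0.28 with an adjusted p of 0.3, also below it. Of 23 genes of the NF-kB pathway and adhesion molecules, Zfp36 alone rose (0.126% of all probe sets did), by at least 2.27-fold (2.00 ± 0.20). Zfp36 codes for tristetraprolin, which speeds the decay of cytokine messenger RNAs. Ccrl2, an atypical receptor that binds chemerin, was called at 1.24 ± 0.21 below background, in no list. Of 20 interferon-stimulated genes 0 were called.

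Markers of cells that could enter or be lost were measured beside these genes. All 14 measured neutrophil and monocyte markers were above background on none of the 10 arrays, with a median difference of -0.02. The log2 of their summed signal was 6.59 to 6.95 in MCAO mice and 6.71 to 6.88 in sham mice. Of 15 microglia markers 0 were called (median 0.04; summed signal 9.96 to 10.38 against 9.95 to 10.19), and of 14 endothelial markers 0 were called (median 0.11; 10.88 to 11.52 against 11.21 to 11.28). Cldn5, a tight junction protein, was at 0.89 ± 0.23 with an adjusted p of 0.28. Fewer cells of a type and less RNA per cell cannot be told apart in a whole hemisphere.

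Markers of brain tissue were present, as the labels imply. All 15 neuron markers were above background on all 10 arrays, with a median difference of 0.04 and a range of -0.04 to 0.19. All 12 astrocyte markers and 11 of 12 oligodendrocyte markers were also above background on all 10, with medians of 0.06 and 0.09 and 0 calls in each list. Striatal medium spiny neurons lie in the core of the artery's territory. Their markers had a median of -0.18, with 3 of 16 positive (51.9% of all probe sets were) and 0 called. Their contralateral median was also -0.18, and their summed signal spanned 12.14 to 13.38 in MCAO mice and 12.86 to 13.23 in sham mice. Choroid plexus markers were above background on none of the 10 arrays. The part of dissection in these values was not tested.

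Stress programmes that follow energy failure showed few or no calls at 2 h. Among 18 heat shock chaperones 0 were called, with a median of 0.21. Of these, 17 were positive (51.9% of all probe sets were), and in 4 the MCAO values lay wholly above the sham values (1.40% of all probe sets). The inducible Hsp70 gene Hspa1a lay between 6.07 and 8.13 in MCAO mice against 5.59, 5.66 and 5.52 in sham mice (1.58 ± 0.36, limma adjusted p = 0.19), so the groups were apart while MCAO mice differed widely. It was called with all 4 groups and mouse as a random block (limma adjusted p = 0.0451) and without MCAO mouse 5 (0.0439). It was also called with the mouse number as a replicate block (1.85, adjusted p = 0.0226). Only numbers 2 and 4 occur in both kept groups, so that estimate rests on those mice, which are different animals. Over all alternatives the adjusted p of Hspa1a ran from 0.0226 to 0.968. Its near-identical copy Hspa1b was at 1.50 ± 0.40 (adjusted p = 0.3), and probe sets of the pair can share signal. Of 22 genes of the unfolded protein and integrated stress response 0 were called, with a median of 0.21. Here 19 were positive, and the groups were apart upward in 1. Ppp1r15a, which restarts translation under stress, came nearest (0.82 ± 0.16, adjusted p = 0.072), and was called with trend and robust settings (0.0309) and among brighter probe sets only (0.0214).

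Hypoxia and metabolic genes gave the same picture. None of 31 HIF-1 targets and glycolytic genes was called (median 0.13), and 23 were positive (51.9% of all probe sets were). In 2 the MCAO values lay wholly above the sham values (1.40% of all probe sets), the collagen hydroxylase P4ha1 at 0.61 ± 0.18 and Adm at 0.54 ± 0.16. In 1, Hif3a at -0.57 ± 0.22, they lay wholly below (0.986%). Vegfa was at 0.23 ± 0.15 with overlapping groups. None of 20 antioxidant and metallothionein genes was called (median 0.07), with Hmox1, the haem-degrading enzyme, at 0.13 ± 0.20. Of 18 Bcl2 family regulators of cell death 0 passed (median 0.09), and of 17 p53 targets only Btg2 did (0.126% of all probe sets rose). None of 19 sterol synthesis genes was called. Their median was 0.37, 17 were positive (51.9% of all probe sets were), and in 6 the MCAO values lay wholly above the sham values (1.40% of all probe sets). Idi1, an enzyme of the mevalonate pathway, was at 0.72 ± 0.17 and Stard4, a sterol carrier, at 0.76 ± 0.17, both with adjusted p of 0.19. None of 38 nuclear-encoded respiratory chain subunits was called, with a median of 0.07 and 34 positive. None of 23 glutamate and GABA-A receptor subunits was called, with a median of 0.03 and 13 positive.

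Surgery itself can raise stress hormones, and clock genes respond to them. Of 24 glucocorticoid-responsive genes, 1 rose, Dusp1 (0.126% of all probe sets rose). In this list 7 were positive (51.9% of all probe sets were), with a median of -0.14. Fkbp5, a standard target of the glucocorticoid receptor, was at -0.40 ± 0.20 with overlapping groups. In 3 members, Dusp1, Per1 (0.81 ± 0.15) and Errfi1 (0.72 ± 0.18), the MCAO values lay wholly above the sham values (1.40% of all probe sets). Whether stress hormones had a part was not tested. Of 19 clock genes 1 rose (0.126% of all probe sets did), Ciart, a repressor of the circadian feedback loop. Its rise was 2.18-fold (1.12 ± 0.17, limma adjusted p = 0.0128), from 6.20 to 6.41 in sham mice to 6.97 to 7.98 in MCAO mice. Depp1, a target of FoxO factors linked to autophagy, rose at least 1.32-fold (1.83 ± 0.21) and was in no list. Its signal was above background on 6 of 7 MCAO arrays.

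**Figure D3:**
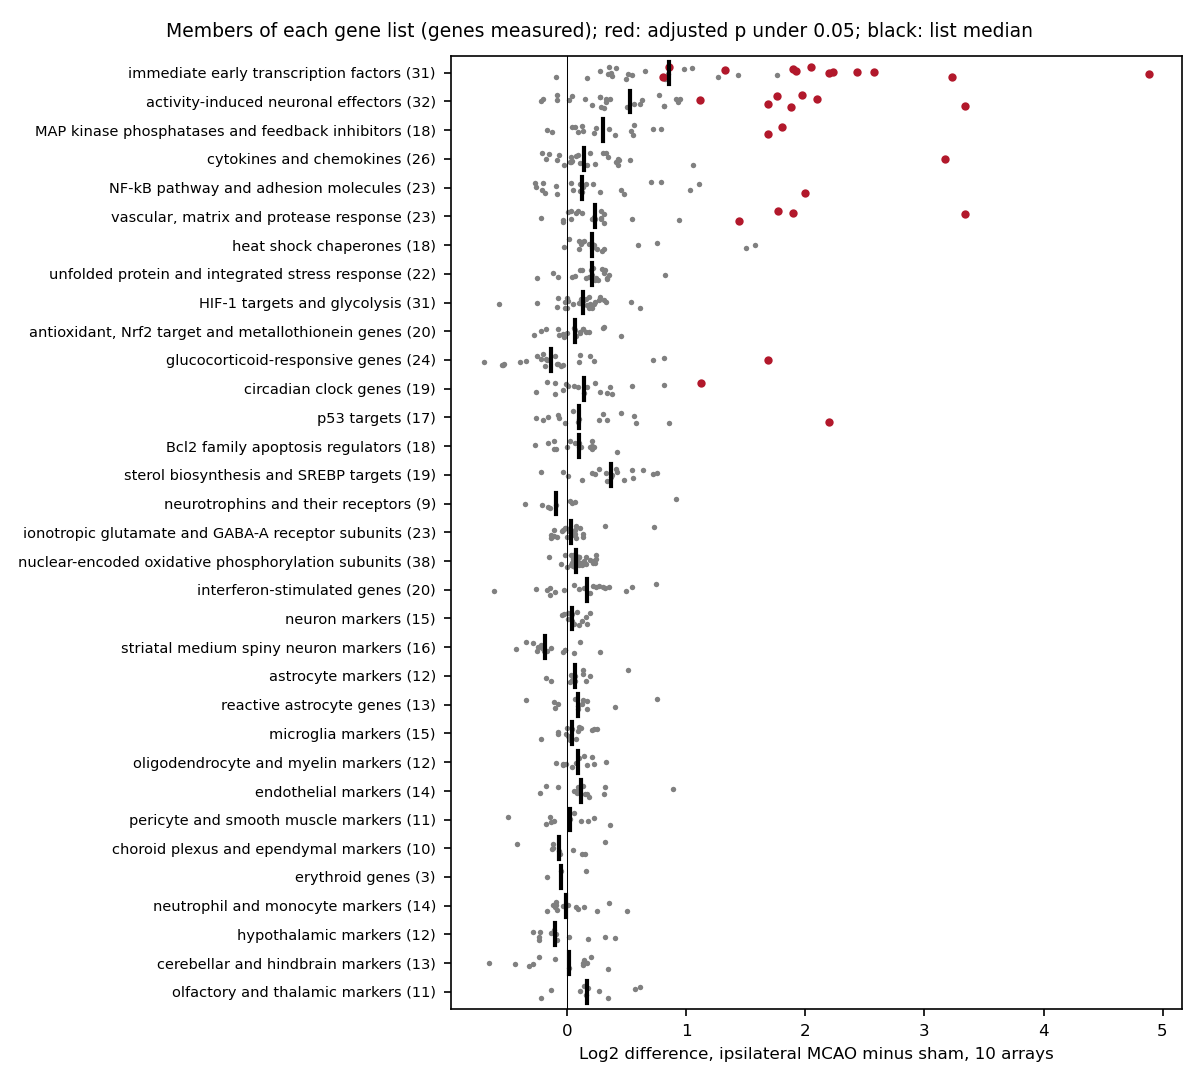
Each point is a measured gene of 1 of 33 lists, placed by its log2 difference, ipsilateral MCAO minus sham, on the 10 kept arrays; red points were called, black lines are list medians, and the number of measured genes follows each name. The red points gather in the immediate early list (12 of 31), the activity-induced effectors (7 of 32) and the vascular and matrix list (4 of 23). The marker lists of cell types and brain regions hold 0. The lists were chosen with earlier results of these data known.

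The 5 lower genes were all dim. Slc16a9, a transporter of the monocarboxylate family, lay between 3.91 and 4.42 in MCAO mice and at 5.18, 5.23 and 4.74 in sham mice (-0.94 ± 0.14, limma adjusted p = 0.0126). Gata2, a zinc finger transcription factor, was at -0.93 ± 0.15, Zfp648 at -0.92 ± 0.16, Col23a1, a transmembrane collagen, at -0.82 ± 0.14 and the clone-named gene 5830454E08Rik at -0.97 ± 0.16. None of the 5 was above background on any of the 10 arrays, so no fold is given. Each lost its call in at least 2 of the 10 fits that left out 1 mouse, whereas 21 of the 28 higher genes kept theirs whichever mouse was left out. The 7 higher genes that lost a call at least once were Ccrl2, Cebpb, Ciart, Egr2, Maff, Thbs1 and Trib1.

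The 7 MCAO mice were not equal. Over the 28 higher genes, the median excess over the sham mean ran from 1.48 in mouse 5 to 2.11 in mouse 4, with the other mice at 1.81 to 2.07. Mouse 5 had the lowest value of the 7 in 18 of the 28 genes, and mouse 4 the highest in 9. Even in mouse 5 Npas4 stood 4.16 above the sham mean. Without mouse 5, 46 probe sets were called in place of 33.

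The contralateral hemisphere of the same mice gave the comparison outside the occluded territory. Between MCAO and sham mice 0 of 22206 probe sets were called there (0%), against 1020 (4.59%) at an unadjusted p under 0.05, and eBayes with trend and robust settings called 1. The smallest adjusted p was 0.174, for Apold1 (1.04 ± 0.15). All 28 genes that were higher ipsilaterally had a positive contralateral difference, from 0.22 to 1.83 with a median of 0.72, where 52.5% of all probe sets were positive. An unadjusted p under 0.05 was reached by 18 of the 28. In 7 of them, Ccn1, Nr4a1, Btg2, Apold1, Dusp1, Ciart and Maff, the contralateral groups did not overlap (0.779% of all probe sets). The 5 lower genes ran from -0.30 to 0.20 there, and 0 of them had lower groups that did not overlap (0.599% of all probe sets). Both hemispheres come from the same mice, so these values are not an independent repeat.

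The test of the difference between the hemispheres, with mouse as a block, called 0 of 22206 probe sets (0%) in limma, against 1312 (5.91%) at an unadjusted p under 0.05 and 5 with trend and robust settings. The smallest adjusted p was 0.289. The 28 higher genes were chosen for their ipsilateral difference, which favours a greater value on that side, so their values are given only as a description. The ipsilateral difference exceeded the contralateral one by 0.08 to 3.05, with a median of 1.22. For Ccn1, above background on all 10 kept arrays of each side, the excess was 1.83 (adjusted p = 0.291 in limma). For Npas4 it was 3.05 (adjusted p = 0.481), with sham signals below background on both sides. At the other end Maff was at 0.86 ipsilaterally and 0.78 contralaterally, 0.08 apart (unadjusted p = 0.72). Apold1 was at 1.77 and 1.04, and Klf4, a factor of vascular and epithelial cells that missed the threshold, at 1.27 and 1.10. Hspa1a was at 1.58 ipsilaterally and 0.04 contralaterally, and Bdnf at 0.91 and 0.03.

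**Figure D4:**
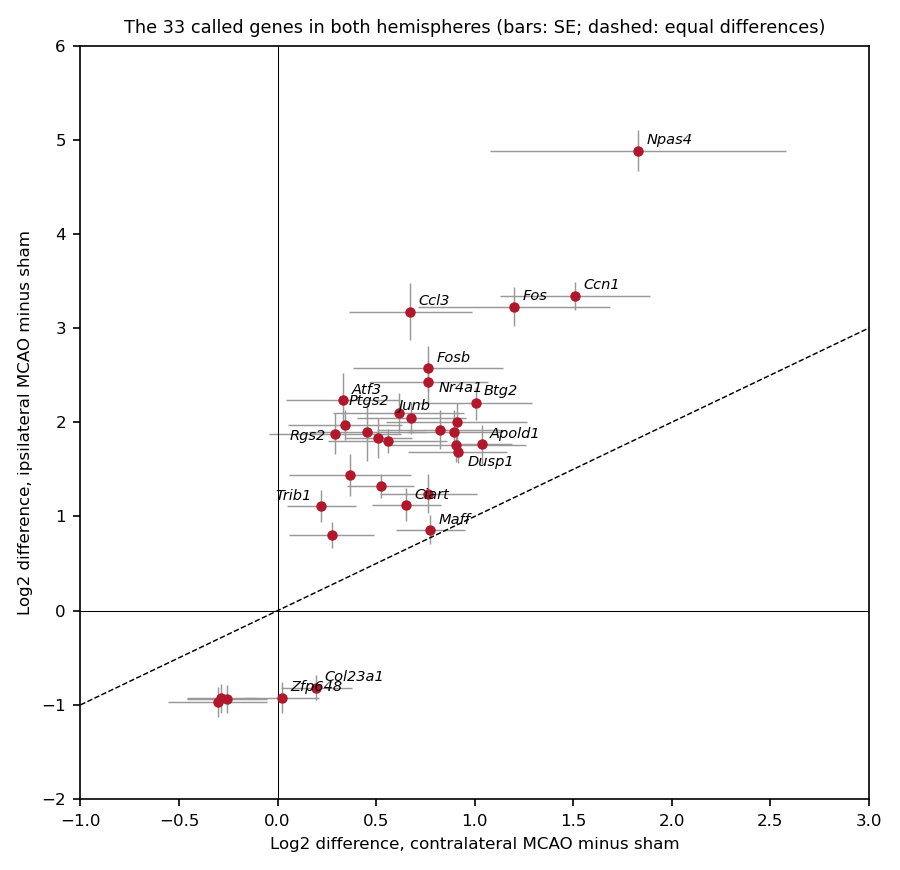
Log2 difference, MCAO minus sham, of the 33 called genes in the contralateral (x axis) and ipsilateral (y axis) hemisphere, each from 10 arrays, with standard errors as bars and equal differences on the dashed line. The genes were chosen by the value on the y axis, which favours a place above the line for the 28 higher genes; they run from Maff at 0.78 and 0.86 to Npas4 at 1.83 and 4.88.

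**Figure D5:**
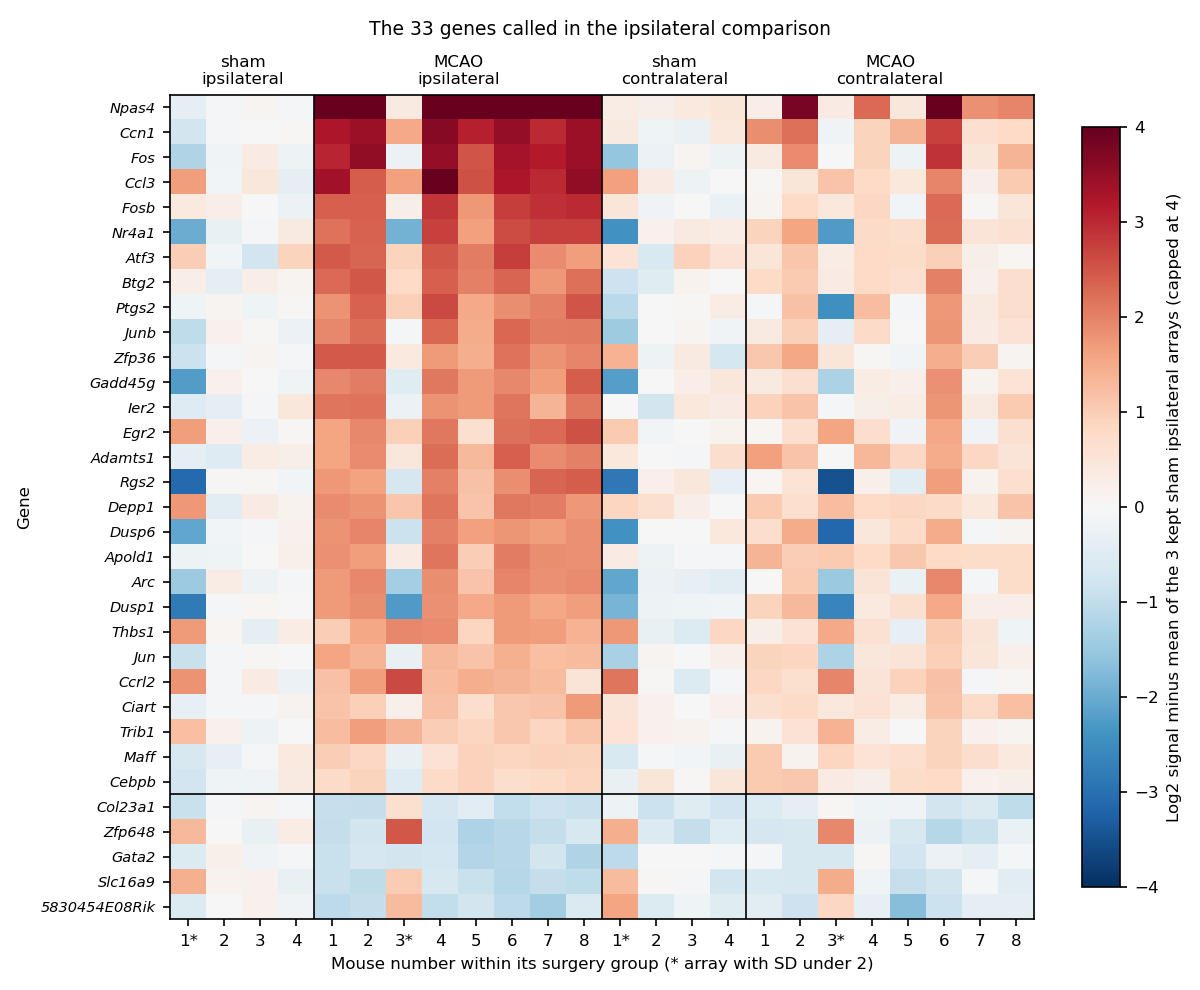
Log2 signal of the 33 called genes (rows) on all 24 arrays (columns, by mouse number within each group) minus the mean of the 3 kept sham ipsilateral arrays; the colour scale ends at 4 log2 units in either direction, and asterisks mark arrays with an SD under 2. The 28 higher genes are red across the 7 kept MCAO ipsilateral arrays, and contralateral mouse 6, with a median of 1.57 over the contralateral sham mean, is redder than the other contralateral mice.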

How the data were processed

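RNA of 24 hemispheres was measured on 1 array each. Per the submitters' processing notes, the authors used Affymetrix Expression Console for the deposited log2 signals. For its version, background correction, normalization and genome build, nothing is given in the sources used here. That the scale is log2 was inferred from the range of values, and folds rest on it. Of 29129 probe sets, 6923 controls were left out. No filter on signal was applied. Of the 22206 tested, 19572 had 1 gene symbol and 2634 are unnamed here. Groups were compared with limma 3.58.1 in R 4.3.3 (lmFit, eBayes), with Benjamini-Hochberg adjustment and 0.05 as threshold. Errors are standard errors.

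The named genes were the 12 greatest rises and all falls past the threshold with groups apart, and up to 4 called members (or the 2 of smallest p) of each list. Some genes that this rule picked from lists without a call are not printed. The remaining called genes, the near misses and the relatives of named genes were added after their values were seen. So were other list members, among them Vegfa, Hmox1, Fkbp5, Homer1, Il1b, Il6 and Tnf. Of 619 listed genes 566 were measured, by 1 probe set each. The comparison, lists and SD limit were chosen with earlier results of these data known. Alternatives were the arrays kept, eBayes with trend and robust settings, brighter or singly named probe sets, median centring, quantile normalization, array weights, mouse blocks and each mouse left out. The fits were tested on simulated data. Promoters came from RefSeq (GRCm38.p6), and figures were drawn with matplotlib 3.10.9.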

Additional observations from a re-analysis of the deposited data

Results flagged for a closer look

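Arrays far from the rest of their group were found by comparing the gap to the nearest array with the group's range. In the MCAO group the array of mouse 3 had an SD over probe sets of 1.54, the next being 2.38, and in the sham group the array of mouse 1 had 1.54, the next being 2.33. Among the kept MCAO arrays, mouse 5 was far below the others for Depp1 (5.29, next 5.89), Apold1 (6.04, next 6.73) and Arc (7.71, next 8.25). Mouse 8 was far below the others for Ccrl2 (3.44, next 4.11) and mouse 4 for Maff (3.69, next 3.96). These were 5 of 33 gene groups examined, and chance marks about 1 group in 20.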

How the results depend on the processing

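With all 12 arrays, the count of 1 called probe set became 50 with array quality weights (42 higher, 8 lower) and 0 with the mouse number as a replicate block, and it ran from 0 to 17 with each mouse left out. The 17 came without MCAO mouse 3, and 0 came without MCAO mouse 1, 2, 5 or 8 or without any of the 4 sham mice. With the 10 kept arrays, the 33 calls became 50 with trend and robust settings (44 higher, 6 lower), 51 when all 4 groups shared a fit with mouse as a random block (42 higher, 9 lower), and 24 (without sham mouse 2) to 46 (without MCAO mouse 5) with each mouse left out. With the mouse number as a replicate block 29 were called, 23 of them among the 33. Mice that share a number are different animals, and only numbers 2 and 4 occur in both kept groups. The block therefore estimates the difference from those mice alone, and the correlations of their deviations were 0.013 and 0.007. The 0 calls contralaterally and in the difference between hemispheres became 1 and 5 with trend and robust settings.

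All 33 called genes kept their sign in every alternative run that held them. The run on brighter probe sets only held 26 of the 33. Maff lost its call in the most alternatives, among them median centring and quantile normalization. Acta2 and Srxn1, which did not pass the test, changed sign with all 12 arrays, to 0.24 and 0.29. Of the genes named by rule that missed the threshold, Hspa1a, Bdnf, Ppp1r15a, Pcp2 and Ddx58 each gained a call under at least 1 alternative. The causes were not tested. Signal over background limits the 5 lower genes, Thbs1, Ccrl2 and Maff, which passed it on 0 arrays.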

Other observations

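The contralateral hemispheres of the MCAO mice differed among themselves in the 28 genes that were higher ipsilaterally. The median excess over the contralateral sham mean was 1.57 in mouse 6 and 0.92 in mouse 2, against 0.30 to 0.65 in the other 5 kept mice. Mouse 6 had the highest contralateral value in 19 of the 28 genes and exceeded all 3 sham mice in 28 of 28. Contralateral Npas4 reached 9.51 in mouse 6 and 8.54 in mouse 2 but 4.99 in mouse 1 and 5.19 in mouse 5. Ipsilaterally the same mice did not rank this way, with medians of 2.07 in mouse 6 and 1.94 in mouse 2.

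The 10 probe sets with the most negative ipsilateral differences were all unnamed here, and 0 of them passed the test. Of these, 8 have neighbouring identifiers that start with TC09. The lowest, TC0900000004.mm.2, was at -2.02 (limma adjusted p = 0.673), with signals of 3.15 to 7.57 in MCAO mice and 5.75 to 9.94 in sham mice. Its contralateral signals were 3.79 to 8.51 and 4.71 to 8.17.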
